A study of Sus scrofa with 8 samples.

Results

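The 6 immunoproteasome subunit and PA28 activator genes encode the interferon-inducible catalytic subunits of the proteasome and the chains of its activator PA28. They were chosen by symbol: a gene was taken where its identifier in the deposited count table carried PSMB8, PSMB9, PSMB10, PSME1, PSME2 or PSME3 in the pig Ensembl gene names. Each symbol stood on 1 identifier, giving 6 of the 24358 genes in the table. The 20S proteasome is a barrel whose inner rings hold the catalytic β subunits, and in the immunoproteasome the inducible subunits take the places of the constitutive ones during assembly. PA28 is a ring that caps the barrel and opens it, made either of α and β chains, which are interferon-inducible, or of γ chains, which act in the nucleus. Immunoproteasomes are abundant in leukocytes, and IRF-1 is a transcription factor of the interferon response known to act on genes of antigen processing.

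RNA-seq was done on porcine induced pluripotent stem cells (piPSCs) to see what IRF-1 overexpression changes in gene expression. The cells were DOX-hLIF-2i piPSCs, reprogrammed from porcine embryonic fibroblasts by doxycycline-inducible OCT4, SOX2, KLF4 and cMYC and kept on doxycycline with LIF and 2 inhibitors. Replicates 1 and 3 are IRF-1 overexpressing cells with PB-CAG-IRF1-Flag, a piggyBac vector that drives IRF1 from the strong ubiquitous CAG promoter. Replicates 6 and 8 are control cells, which received PB-CAG-Flag. Puromycin selection was used on both, and feeder cells were removed by letting them attach before the RNA was taken. The genotype label reads overexpression for all 4 libraries, so the groups rest on the library numbers and the legend of the study. The labels also name LCDMV as the culture system, which is not the medium that the methods give for these cells. Nothing states that the 2 libraries of a group came from separate cultures, so the p-values measure the spread between these libraries, which may be technical.

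The reads counted on genes numbered 24923319 and 20858333 in overexpressing replicates 1 and 3, and 15925429 and 17097669 in control replicates 6 and 8. Mitochondrial genes took 8.62% and 7.57% of the reads of overexpressing replicates 1 and 3 against 6.29% and 6.68% of those of control replicates 6 and 8. IRF1 (ENSSSCG00000014277) checked the grouping. It had 8206 and 5485 counts in overexpressing replicates 1 and 3 against 55 and 56 in control replicates 6 and 8. Vector and endogenous transcripts were not told apart by these counts. Levels are given as CPM, which are counts scaled to one common library size after adjusting each library by edgeR's TMM factor. A gene was called higher or lower when edgeR's quasi-likelihood test gave a Benjamini-Hochberg adjusted p under 0.05 over the 13250 genes tested and the log2 fold change was at least 1 in size.

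Of the 6 genes, 5 were higher in the IRF-1 overexpressing cells and 0 were lower. Among all genes tested, 8.61% were called higher and 10.6% lower. The 3 catalytic subunit genes PSMB8, PSMB9 and PSMB10 had the larger fold changes, between 10.1-fold and 20.2-fold. PSME1 and PSME2, which encode the α and β chains of PA28, were 3.32-fold and 3.38-fold higher. The call of PSME1 was lost with DESeq2 and without any 1 of 3 libraries. PSME3, which encodes the γ chain, was not called. All 6 genes passed the filter on low counts, and each had at least 12 counts in every library. In bulk RNA, a larger share of expressing cells and more RNA per cell cannot be told apart.

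PSMB8 encodes β5i (LMP7), the inducible subunit with chymotrypsin-like activity. Its identifier ENSSSCG00000026951 is placed on chromosome 7 of Sscrofa11.1, minus strand, from 25053132 to 25073046. PSMB8 had 4156 counts in overexpressing replicate 1 and 2756 in replicate 3, against 144 in control replicate 6 and 99 in replicate 8. Both overexpressing libraries were far above both controls. This was 150 ± 24.6 CPM against 7.44 ± 2.51 CPM (SD, n = 2 per group). The log2 fold change was 4.34 (standard error 0.26, 95% confidence interval 3.73 to 4.94, adjusted p = 0.000145 in edgeR's quasi-likelihood test). It ranked at place 161 among the 1141 genes called higher, ordered by fitted log2 fold change.

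PSMB9 encodes β1i (LMP2), the inducible subunit in the place of β1. ENSSSCG00000001463 lies on the plus strand of chromosome 7, from 25071712 to 25077233. PSMB9 had 1090 and 743 counts in overexpressing replicates 1 and 3, and 71 and 33 in control replicates 6 and 8. The groups did not overlap, but the controls differed between themselves, at 4.54 and 1.89 CPM. The level was 39.8 ± 5.77 CPM in the overexpressing cells and 3.22 ± 1.88 CPM in the control cells (SD, n = 2 per group). The log2 fold change of PSMB9 was 3.64 (standard error 0.37, 95% confidence interval 2.78 to 4.50, adjusted p = 0.000686 in edgeR), at place 249 of the 1141. Its size rested in part on the controls, since leaving out control replicate 6 gave 4.39 and leaving out control replicate 8 gave 3.14.

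PSMB10 encodes β2i (MECL-1), which takes the place of β2, the trypsin-like subunit. ENSSSCG00000031781 lies away from the other 2, on chromosome 6, minus strand, from 28540808 to 28548152. PSMB10 had 4200 and 3030 counts in overexpressing replicates 1 and 3 against 245 and 272 in control replicates 6 and 8. Of the 3 catalytic genes it had the smallest relative spread within each group, with 157 ± 16.5 CPM against 15.6 ± 0.0916 CPM (SD, n = 2 per group). The log2 fold change was 3.33 (standard error 0.16, 95% confidence interval 2.96 to 3.70, adjusted p = 9.79e-05 in edgeR), at place 298 of the 1141. For each of the 3 genes, overexpressing replicate 1 lay above replicate 3. IRF1 showed the same order, with 330 and 264 CPM.

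PSME2, for the β chain of PA28, lies at ENSSSCG00000002004 on the plus strand of chromosome 7 from 75153774 to 75159030. It had 618 and 478 counts in overexpressing replicates 1 and 3 and 111 and 123 in control replicates 6 and 8. The libraries of a group were close to each other, at 23.9 ± 1.34 CPM against 7.07 ± 0.0509 CPM (SD, n = 2 per group). The log2 fold change of PSME2 was 1.76 (standard error 0.21, 95% confidence interval 1.28 to 2.24, adjusted p = 0.00107 in edgeR).

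PSME1, for the α chain, lies beside it at ENSSSCG00000002006, on the minus strand from 75160765 to 75164810. It was the most thinly counted of the 6 genes. PSME1 had 83 and 39 counts in overexpressing replicates 1 and 3, and 12 and 14 in control replicates 6 and 8. The groups did not overlap, with 2.61 ± 1.04 CPM against 0.784 ± 0.0229 CPM (SD, n = 2 per group). The log2 fold change of PSME1 was 1.73 (standard error 0.48, 95% confidence interval 0.61 to 2.85, adjusted p = 0.0311 in edgeR). Its value was near that of PSME2, but its call was not firm. It was 1.74 with DESeq2 (adjusted p = 0.0539), 1.26 without overexpressing replicate 1 (adjusted p = 0.285), 1.70 without control replicate 6 (adjusted p = 0.07) and 1.77 without control replicate 8 (adjusted p = 0.0631), while its adjusted p ranged from 0.00618 to 0.285 over the alternatives.

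PSME3 encodes PA28γ, a nuclear activator outside the interferon-inducible set. ENSSSCG00000017385 lies on the minus strand of chromosome 12, from 20024788 to 20035870. PSME3 had 6651 and 5306 counts in overexpressing replicates 1 and 3, and 2934 and 4189 in control replicates 6 and 8. Both overexpressing libraries lay above both controls after scaling, but the nearest libraries of the 2 groups were closer to each other than the controls were among themselves, with 261 ± 8.93 CPM against 214 ± 36.6 CPM (SD, n = 2 per group). The log2 fold change was 0.29 (standard error 0.16, 95% confidence interval -0.07 to 0.65, adjusted p = 0.205 in edgeR). The interval does not reach a doubling, which is a log2 fold change of 1.

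**Figure D1:**
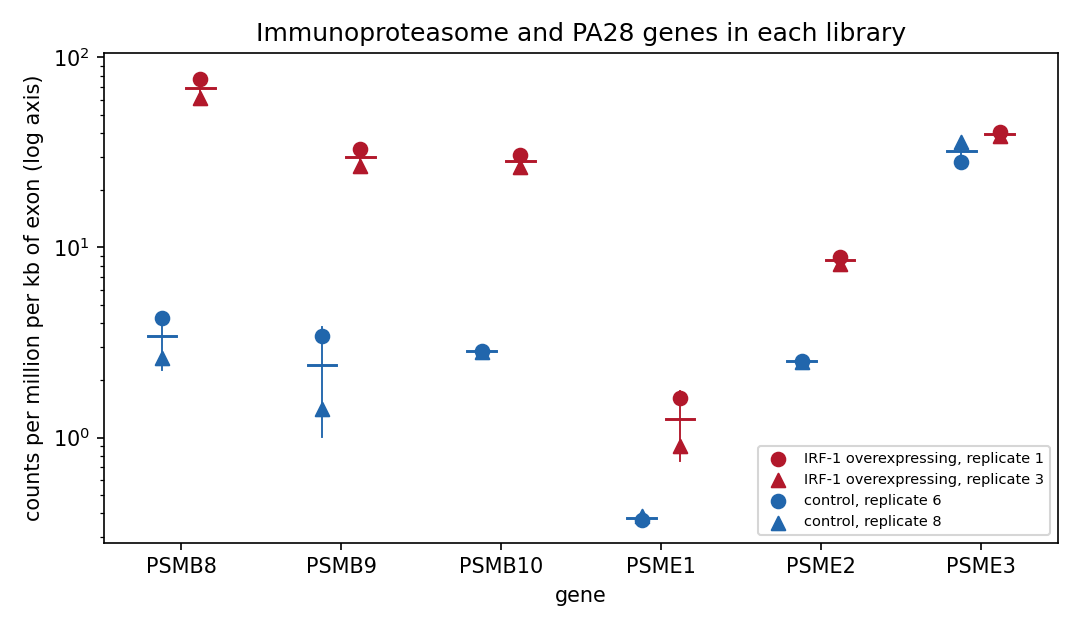
Level of each of the 6 genes in each of the 4 libraries, as CPM per kb of exon on a log axis, with IRF-1 overexpressing libraries in red and control libraries in blue. Horizontal lines are group means and vertical lines ± 1 SD (n = 2); PSMB8, PSMB9 and PSMB10 lie between 26.5 and 77.2 in the overexpressing libraries and between 1.42 and 4.25 in the controls, while PSME3 lies between 28.3 and 40.3 in all 4.

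Levels of different genes were compared only as CPM per kb of exon. In the control cells PSME3 stood highest, at 32.2 ± 5.51 CPM per kb (SD, n = 2). Below it, PSMB8 (3.43 ± 1.16), PSMB10 (2.84 ± 0.0167), PSME2 (2.52 ± 0.0182) and PSMB9 (2.42 ± 1.41) lay close together in CPM per kb, and PSME1 was lowest at 0.378 ± 0.011. Of these neighbours, PSMB8 and PSMB10 did not differ beyond their spread, and neither did PSME2 and PSMB9. In the overexpressing cells the order was another. PSMB8 came first at 69.2 ± 11.4 CPM per kb, followed by PSME3 at 39.4 ± 1.34, PSMB9 at 29.9 ± 4.33 and PSMB10 at 28.6 ± 3.01, with no difference beyond the spread between the last 2. PSME2 followed at 8.54 ± 0.479 and PSME1 at 1.26 ± 0.499 CPM per kb. This order rested on the length used. Per kb of the exon bases that a gene shares with no other, an alternative chosen after seeing the data, PSMB10 was at 56.2 ± 5.91 CPM per kb in the overexpressing cells, above PSMB9 (39.6 ± 5.74) and with its libraries overlapping those of PSME3 (52.4 ± 1.79), while PSME2 was at 19.96 ± 1.12 and PSME1 at 3.15 ± 1.25. In the controls PSME2 (5.90 ± 0.0425) and PSMB10 (5.58 ± 0.0328) then stood above PSMB8 (3.43 ± 1.16) and PSMB9 (3.20 ± 1.87), PSME3 stayed highest (42.8 ± 7.33) and PSME1 lowest (0.947 ± 0.0277).

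The exon models of these genes overlap those of their neighbours, and whether reads were assigned by strand, or how reads in shared exons were treated, is not given in the sources used here. PSMB8 shares no exon base with another gene, although its model spans all of TAP1. PSMB9 shares 327 of its 1331 exon bases with TAP1 on the opposite strand. PSMB10 shares 2702 of 5501 bases with PSKH1 on the opposite strand and 795 with CTRL on its own, and CTRL had 0 counts in each library. PSKH1 was not called (log2 fold change -0.24, adjusted p = 0.234 in edgeR), with 1300, 1015, 940 and 1038 counts in overexpressing replicates 1 and 3 and control replicates 6 and 8. PSME3 shares 1585 of 6639 bases with AOC2 on its own strand, and AOC2 had at most 33 counts in a library.

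At the PSME1 and PSME2 locus the overlap was deeper. PSME2 shares 1602 of 2801 exon bases with RNF31 on the opposite strand. PSME1 shares 848 of 2076 bases with FITM1 on its own strand and 400 with EMC9 on the other. Within the RefSeq span of PSME1 (75161830 to 75164531), 123 of its 971 exon bases belong to no other gene, and for PSME2 the number is 215 of 846. The part of this overlap in the low counts of PSME1 was not tested. None of these neighbours was higher past the threshold. RNF31 had 1609, 1489, 1096 and 1340 counts in the same order of libraries (log2 fold change -0.11, adjusted p = 0.611 in edgeR), FITM1 had 12, 8, 22 and 17 (-1.43, adjusted p = 0.0768), and EMC9, with 112, 89, 199 and 174, was lower (-1.37, adjusted p = 0.00913).

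**Figure D2:**
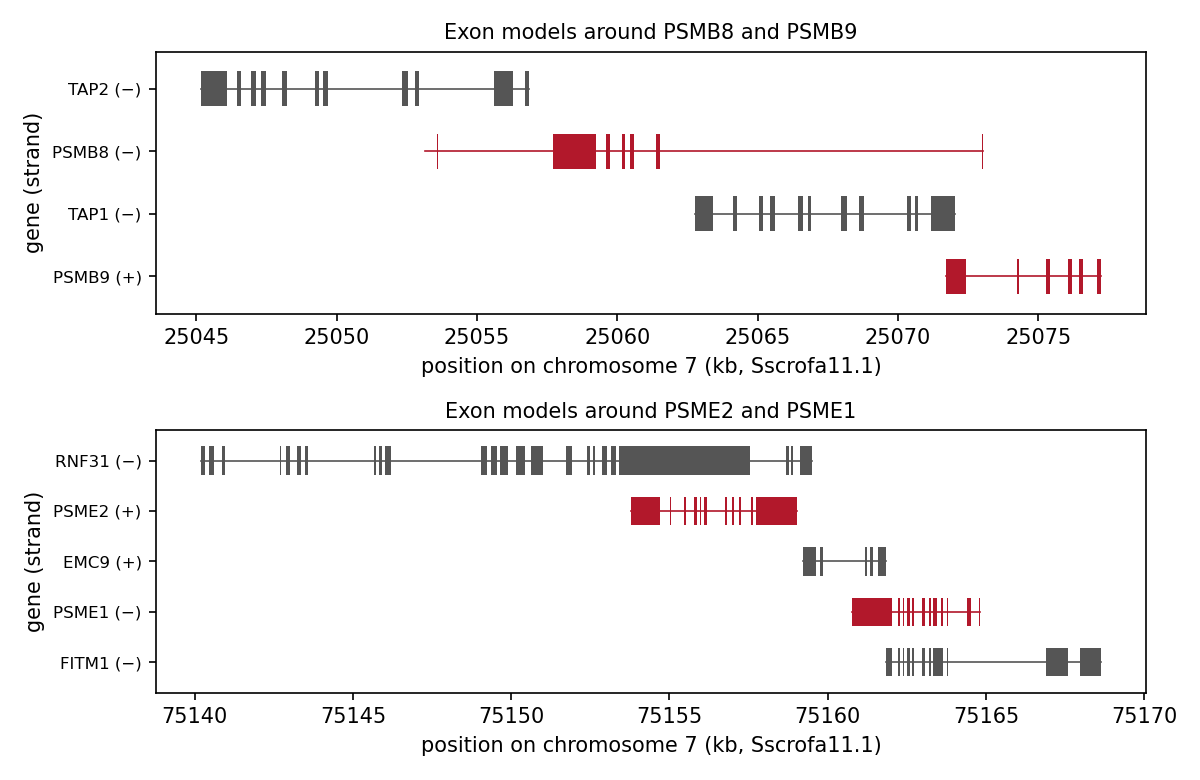
Exon models (boxes) of the count table on chromosome 7 of Sscrofa11.1, with position in kb on the horizontal axis and one line per gene with its strand, for PSMB8 and PSMB9 (upper panel) and PSME2 and PSME1 (lower panel). The proteasome genes are red and their neighbours grey; PSMB9 shares 327 exon bases with TAP1, PSME2 1602 with RNF31, and PSME1 848 with FITM1 and 400 with EMC9, while PSMB8 shares 0.

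Each inducible subunit replaces a constitutive partner, PSMB8 that of PSMB5, PSMB9 that of PSMB6 and PSMB10 that of PSMB7. PSMB7 was found by symbol (ENSSSCG00000005590). PSMB5 and PSMB6 have no identifier with that symbol, so the unnamed identifiers at their RefSeq positions were taken, a choice made after seeing the data. The one at PSMB5 is ENSSSCG00000002036, of whose exon bases 17.7% lie in the RefSeq span of PSMB5, and the one at PSMB6 is ENSSSCG00000017913, with 34.2%. The span of the PSMB5 identifier also holds the RefSeq gene C7H14orf93. Reads from beyond PSMB5 and PSMB6, in the first case also from that gene, can therefore be part of these counts and of the ratios below. The models of PSMB8, PSMB9, PSMB10 and PSMB7 also reach past their RefSeq spans, which hold 62.4%, 68.4%, 32.6% and 89.7% of their exon bases. The PSMB5 identifier had 4331, 4054, 3125 and 2572 counts in overexpressing replicates 1 and 3 and control replicates 6 and 8, and its log2 fold change of 0.09 was not called (adjusted p = 0.741 in edgeR). The PSMB6 identifier had 4115, 4014, 3220 and 2868 counts (log2 fold change -0.05, adjusted p = 0.865), and PSMB7 had 4825, 4392, 2464 and 2892 (0.33, adjusted p = 0.108). None of the 3 constitutive catalytic genes passed the threshold in either direction.

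The ratio of inducible to constitutive transcripts was therefore much higher in the overexpressing cells. Per kb of exon, PSMB8 over PSMB5 was 3.39 and 2.40 in overexpressing replicates 1 and 3, and 0.163 and 0.136 in control replicates 6 and 8. PSMB8 passed its partner in both overexpressing libraries and stayed below it in both controls. This rests on the long model taken for PSMB5, since on raw counts the ratio was 0.96 and 0.68 against 0.0461 and 0.0385. PSMB9 over PSMB6 was 0.581 and 0.406 against 0.0484 and 0.0252, and on raw counts 0.265 and 0.185 against 0.0221 and 0.0115. PSMB10 over PSMB7 was 0.17 and 0.135 against 0.0194 and 0.0184, below 1 in each of the 4 libraries. Its size also rests on the lengths, with 0.871 and 0.69 against 0.0994 and 0.0941 on raw counts. The group means of the ratios differed 19.4-fold, 13.4-fold and 8.06-fold, and in each case by more than the spread between replicates. These fold differences do not depend on the lengths, which cancel. With 2 libraries against 2, the smallest two-sided p of an exact permutation test is 0.333, and the ratios were not tested. The α and β chains of PA28 kept no such gap between groups. PSME1 over PSME2 per kb was 0.181 and 0.11 in overexpressing replicates 1 and 3 against 0.146 and 0.154 in control replicates 6 and 8, which overlap.

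The other genes of the proteasome were read as lists. Of the 14 genes of the constitutive 20S core, 11 had an identifier by symbol, and 0 were called by edgeR, by DESeq2 or by limma-voom. At an unadjusted p under 0.05, 5 of the 11 passed in edgeR, a share near the 40.7% of all genes tested. All 11 had a log2 fold change above 0, also under each other scaling, with a median of 0.30 beside -0.0016 for all genes tested. The highest was PSMA5, which encodes α5, with 3914, 3297, 1722 and 1666 counts in overexpressing replicates 1 and 3 and control replicates 6 and 8 (log2 fold change 0.62, 95% confidence interval 0.29 to 0.95, adjusted p = 0.0151 in edgeR). PSMA2 was the other core gene with an adjusted p under 0.05 (0.57, adjusted p = 0.0198). The lowest was PSMA1, at 0.10 (adjusted p = 0.624). The differences in the core genes were thus smaller than the threshold of 1, and the difference from the inducible subunits was not tested. PSMA6, taken by its position in the same way as PSMB5, was at 0.42 (adjusted p = 0.0512 in edgeR). Of the exon bases of its identifier, 25.1% lie in the RefSeq span of PSMA6.

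The 19S regulatory particle unfolds substrates and feeds them to the 20S core. Of its 19 genes, 17 had an identifier and 16 were tested. Of these 0 were called by edgeR, DESeq2 or limma-voom, and 2 had an unadjusted p under 0.05 in edgeR. Their median lay at 0.03 on the log2 scale, with values from -0.14 for the lid subunit PSMD12 to 0.42 for the lid subunit PSMD7. ADRM1 had 0 counts in each library. Among assembly factors and other regulators, a list that holds the immunoproteasome chaperone POMP and the activator PSME4 (PA200), 9 of 12 genes were tested. Again 0 were called by the 3 tools, 2 had an unadjusted p under 0.05 in edgeR, and the median was 0.02. POMP had 2421, 2385, 1441 and 1335 counts (log2 fold change 0.33, adjusted p = 0.165 in edgeR). The tissue-restricted subunits were at the floor, with 0 counts of the thymic PSMB11 in each library and 1 count of the testis subunit PSMA8 in control replicate 8 alone.

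Peptides made by the proteasome are carried into the endoplasmic reticulum, trimmed and loaded onto MHC class I. Of 16 genes listed for this step, 9 had an identifier and were tested. Of these 6 were higher and 0 lower, and the median of the 9 was 1.43 on the log2 scale. The transporter genes TAP1 and TAP2 lie beside PSMB8 and PSMB9 on chromosome 7. TAP2 had 6568, 5002, 1256 and 1302 counts in overexpressing replicates 1 and 3 and control replicates 6 and 8 (log2 fold change 1.71, standard error 0.14, adjusted p = 0.000369 in edgeR). TAP1 had 2641, 1798, 628 and 664 (1.30, standard error 0.16, adjusted p = 0.00119). Both had smaller fold changes than PSMB8 and PSMB9, a difference that was not tested. TAPBP (tapasin) and TAPBPL, which edit the bound peptide, had log2 fold changes of 1.43 and 1.62 (adjusted p = 0.000916 and 0.000522). TAPBPL shares 863 of its 4470 exon bases with an unnamed gene on its own strand, which had at most 4 counts in a library.

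The trimming peptidases of the endoplasmic reticulum differed more. ERAP1 had 1375 and 787 counts in overexpressing replicates 1 and 3 against 41 and 54 in control replicates 6 and 8, for which edgeR gave a log2 fold change of 4.02 with a standard error of 0.27 (adjusted p = 0.000195). ERAP2 had 1660 and 921 counts against 0 and 1. From the summed counts, its ratio was 1873 with an exact 95% interval of 336 to 74006, which covers counting error only. This ratio rests on 1 control count. Against a floor of 3 counts per control library ERAP2 was at least 306-fold higher, and edgeR's log2 fold change of 10.57 became 9.78 without control replicate 6 and 13.15 without control replicate 8. The chaperones CALR, CANX and PDIA3 were not called. B2M and the SLA class I genes listed had no identifier by symbol and were not analysed here. In the cytosol, where peptidases such as THOP1 and TPP2 degrade the products of the proteasome further, 0 of 7 tested genes were called by edgeR, DESeq2 or limma-voom. In edgeR 2 of these had an unadjusted p under 0.05, and the median log2 fold change was -0.0027. THOP1 had an adjusted p under 0.05 but a log2 fold change under the threshold (0.54, adjusted p = 0.0204 in edgeR).

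**Figure D3:**
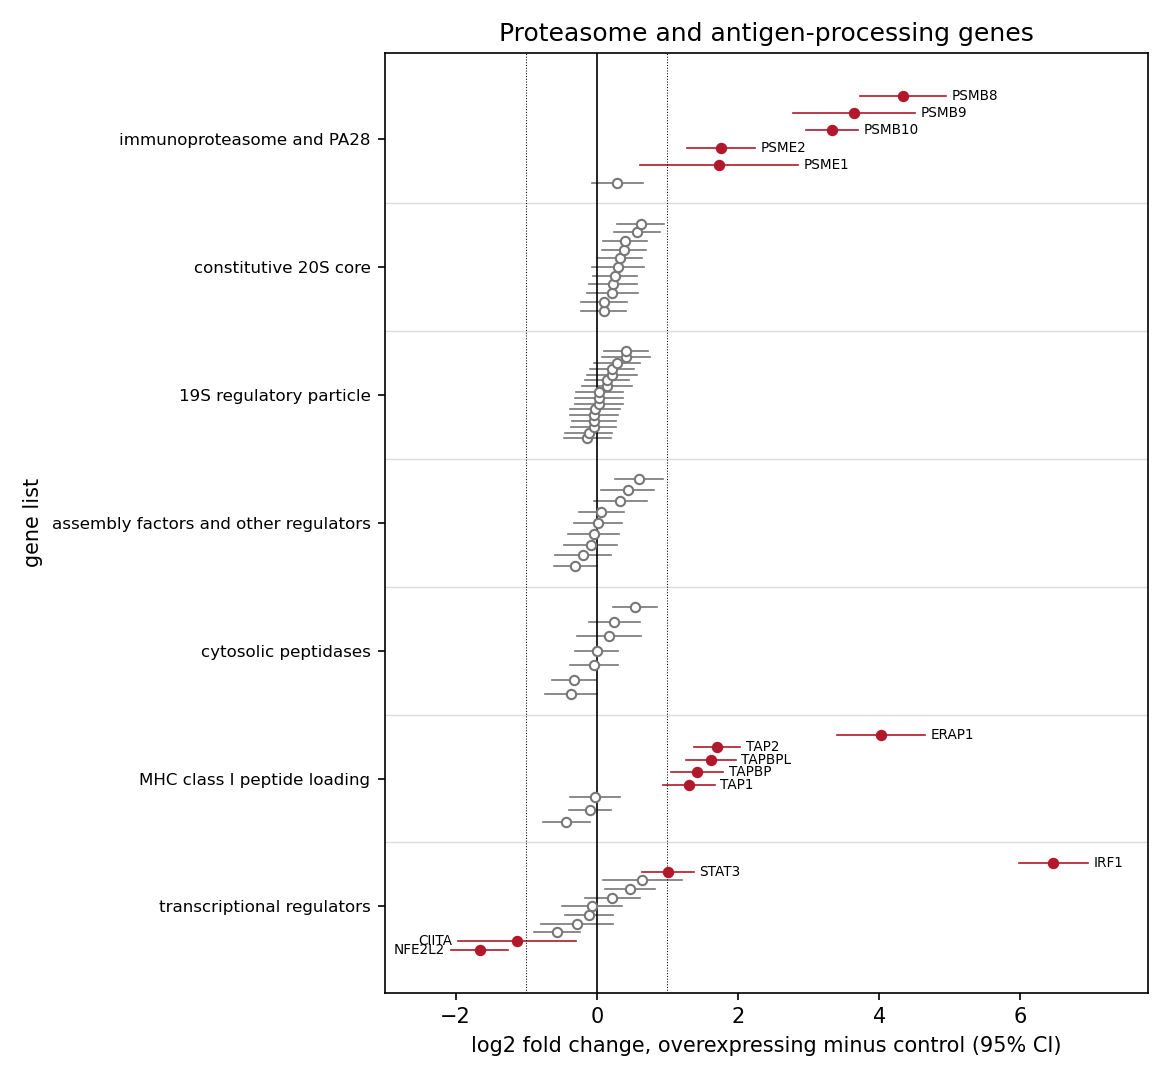
Log2 fold change (overexpressing minus control) with its 95% confidence interval for each tested gene, grouped by list on the vertical axis; filled red points with a symbol were called and open grey points were not, and dotted lines mark -1 and 1. ERAP2 and NLRC5 are left out because their control libraries held at most 1 count; 5 of the 6 immunoproteasome and PA28 genes were called, beside 0 of 11 in the 20S core and 0 of 16 in the 19S particle.

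Of 15 transcriptional regulators of these genes or of interferon responses, 12 were tested, 3 were higher and 2 lower, with a median log2 fold change of 0.08. For IRF1 edgeR gave 6.46 on the log2 scale, with a standard error of 0.21 and an adjusted p of 3.65e-05. NLRC5, the activator of MHC class I genes, had 57 and 36 counts in overexpressing replicates 1 and 3 and 0 in both controls. Against a floor of 3 counts per control library it was at least 11-fold higher (adjusted p = 0.00231 in edgeR). STAT3 was at the limit with a log2 fold change of 1.00 (adjusted p = 0.00329), which fell under it with library totals alone, at 0.86 without overexpressing replicate 1 and at 0.95 without control replicate 8.

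The 2 lower genes among the regulators were CIITA and NFE2L2. CIITA, the activator of MHC class II genes, had 43, 36, 60 and 66 counts in overexpressing replicates 1 and 3 and control replicates 6 and 8 (log2 fold change -1.13, adjusted p = 0.0495 in edgeR). This call was lost with DESeq2 (adjusted p = 0.106) and without each library in turn. The log2 fold change of CIITA hardly moved, lying between -1.14 and -1.12 over the alternatives. NFE2L2 (NRF2), an oxidative stress factor, had 486, 477, 1149 and 1063 counts (-1.66, standard error 0.17, adjusted p = 0.000773). NFE2L1 (NRF1), which drives the constitutive proteasome genes when the proteasome is impaired, had a log2 fold change of -0.56 (adjusted p = 0.0207), under the threshold in size. IRF7, IRF8 and IRF9 had at most 9 counts in a library and were not tested.

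The genes whose pattern over the 4 libraries was most like that of the 3 catalytic subunits were sought among 9130 genes with a symbol and a mean of at least 5 CPM. The measure was the Euclidean distance between mean-centred log2 CPM values and the mean of PSMB8, PSMB9 and PSMB10. The nearest was NMI, at a distance of 0.0432, with 1580 and 1130 counts in overexpressing replicates 1 and 3 against 81 and 57 in control replicates 6 and 8. SOX11 (0.172), HCN4 (0.192), IFIH1 (0.261) and CHST11 (0.271) followed. All 5 were nearer to the mean than the 3 subunits themselves, which were at 0.426 for PSMB9, 0.554 for PSMB8 and 0.661 for PSMB10. The 5 genes were chosen by this pattern, so their log2 fold changes, from 3.57 for CHST11 to 3.95 for HCN4, follow from the choice. The mean of 5 CPM was taken over all 4 libraries, and each of the 5 genes passed it through its overexpressing libraries. In control replicates 6 and 8 their counts ran from 13 and 10 for IFIH1 to 81 and 57 for NMI.

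The labelled cell type was checked against markers. Of 10 pluripotent cell markers, 6 had an identifier by symbol, and POU5F1, SOX2, SALL4 and DPPA3 were not analysed here. Their summed level was 1233 and 1277 CPM in overexpressing replicates 1 and 3, and 1480 and 1642 CPM in control replicates 6 and 8, and DNMT3B was the most abundant. None was at 0, but NANOG had 8, 11, 5 and 9 counts in these libraries and was not tested. Of the 5 tested, 3 were lower, namely LIN28A (-1.34), CDH1 (-2.25) and ESRRB (-4.19 on the log2 scale). For CDH1, leaving out overexpressing replicate 1 gave -1.66 and leaving out overexpressing replicate 3 gave -3.21. DNMT3B (0.27, adjusted p = 0.297) and EPCAM (0.21, adjusted p = 0.573) were not called. The part of the 3 lower markers in the result was not tested.

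Leukocytes hold immunoproteasomes without stimulation, and their 12 markers were all in the table. The summed level was 277 and 184 CPM in overexpressing replicates 1 and 3, and 186 and 130 CPM in control replicates 6 and 8. Most of it was LCP1 in the overexpressing libraries and AIF1 in the controls. In that order of libraries, LCP1 was at 234, 149, 1.92 and 1.20 CPM and AIF1 at 34.9, 25.9, 169 and 119 CPM. The markers differed widely in level. CD3E and LYZ had 0 counts in each library, and PTPRC (CD45) had 1 count in control replicate 8 and 0 in the others, while the lysosomal CD68 had 148, 135, 126 and 100 counts in overexpressing replicates 1 and 3 and control replicates 6 and 8. LCP1, an actin-bundling protein also made outside blood cells, had 5809 and 3105 counts in overexpressing replicates 1 and 3 against 30 and 21 in control replicates 6 and 8. It was the 1 marker of the 6 tested that was higher (log2 fold change 6.95, adjusted p = 9.79e-05 in edgeR). AIF1, with 868, 538, 2640 and 2085 counts in the same order of libraries, was lower (-2.24), and so was CD74 (-1.74), with 17, 21, 58 and 34. The call of CD74 was lost without overexpressing replicate 1 (-1.46), overexpressing replicate 3 (-2.03) or control replicate 6 (-1.20).

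Of 10 fibroblast markers, 9 had an identifier. They summed to 1302 and 1070 CPM in overexpressing replicates 1 and 3 and to 1436 and 1346 CPM in control replicates 6 and 8, most of it VIM. LUM had 0, 1, 3 and 0 counts in these libraries and was not tested. Of 6 tested, COL1A1 (-1.97), PDGFRB (-5.49) and DCN (-3.63) were lower. PDGFRB was at -6.32 without overexpressing replicate 3 and -4.79 without control replicate 6. DCN, with 3, 1, 19 and 19 counts, was at -4.38 without overexpressing replicate 1 and lost its call without overexpressing replicate 3 (-3.18, adjusted p = 0.0557, in a range of 0.00155 to 0.0557 over the alternatives). COL1A2 was higher (1.08), but not without overexpressing replicate 1 (0.65) or control replicate 8 (0.78). The part of these markers in the result was not tested. Library totals and mitochondrial shares also differed between the groups. After removal of mitochondrial genes and of the 10 most highly counted ones, 5 of the 6 immunoproteasome and PA28 genes were again called. That refit bears on the scaling of the libraries only. The part of the differences in library totals and mitochondrial shares in the result was not tested.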

How the data were processed

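For 4 RNA-seq libraries, the authors deposited unnormalized counts per gene beside exon coordinates and lengths. Per the labels and methods, poly(A) RNA was sequenced, and reads were mapped to Sus scrofa 11.1 with HISAT2 (2.0.4 in the submitters' notes). They were counted with featureCounts 1.6.4, and the methods also name htseq-count for tabulating reads. The ChIP-Seq libraries were not analysed here. Counts were tested with edgeR 4.0.16 in R 4.3.3 (TMM, filterByExpr by group, glmQLFit and glmQLFTest, two-sided), after the script had been tested on simulated data. The standard error is the size of the log2 fold change divided by the square root of F. Replicates differed beyond counting noise in both groups (chi-square per degree of freedom 17.9 and 31.3). The floor is 3 counts, or between 0.121 and 0.192 CPM, and covers counting error only, because the reads carry no molecular identifiers. Of 24358 identifiers, 14692 had a symbol. Positions of unnamed genes come from RefSeq on the same build. Python 3.11.15 was used for tables (pandas 2.3.3) and plots (matplotlib 3.10.9).

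The members and the gene lists were chosen with earlier results of these data known. The genes named are IRF1, the 6 members, PSMB5, PSMB6 and PSMB7, every called gene of the lists of peptide loading, regulators, peptidases and assembly factors, the called or else the highest and lowest genes of the 20S and 19S lists, the 5 nearest genes, and the most abundant marker of each list with those at 0. Any other gene was named after its values were seen, or because its exons overlap. The alternatives were 3 other scalings, 2 other filters, DESeq2 1.42.0, limma-voom (limma 3.58.1), no minimum fold change, each library left out, and no mitochondrial or top 10 genes. Promoter motifs were planned but not searched, since no sequences were used here.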

Additional observations from a re-analysis of the deposited data

How the results depend on the processing

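The number of the 6 genes called was 5 under 9 of 13 alternatives and 4 under the others (DESeq2, and without overexpressing replicate 1, control replicate 6 or control replicate 8), each time through PSME1. Its log2 fold change was 1.74 with DESeq2 and ran from 1.26 to 2.09 with each library left out in turn. Over those 4 fits the values ran from 4.03 to 4.72 for PSMB8, 3.14 to 4.39 for PSMB9, 3.23 to 3.44 for PSMB10, 1.71 to 1.82 for PSME2 and 0.12 to 0.49 for PSME3, and these 5 genes kept their direction and their side of the threshold under all 13 alternatives. In these fits the lone library of a group is assumed to vary like the other group. Why DESeq2 did not call PSME1 was not tested. The count of 20S core genes called was 0 except with no minimum fold change, where it was 2 by construction, and it was 0 with PSMA6, PSMB5 and PSMB6 added by position. With each library left out, the fold difference of the ratio ran from 16.1 to 22.7 for PSMB8 over PSMB5, 10.2 to 19.5 for PSMB9 over PSMB6, 7.13 to 8.998 for PSMB10 over PSMB7, and 0.735 to 1.21 for PSME1 over PSME2, which passed 1 without overexpressing replicate 3. Ratios of raw counts gave the same folds. The motif window was not run. No paired analysis was possible because the groups share no replicate numbers. PSME1 had 12 to 83 counts in a library, and its interval spans 1.53-fold to 7.22-fold.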
